A study of Mus musculus with 12 samples.

Results

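Mouse embryonic fibroblasts given Cre recombinase to switch on an allele for the D29H form of the transcription factor NRF2 were compared with fibroblasts of the same genotype that had not received Cre. The comparison was chosen by its 2 groups, Nrf2 D29H and Nrf2 labelled knockout, which make up 6 of the 12 libraries of the study with 3 libraries each. The fibroblasts were isolated from embryos of embryonic day 13.5 to 14.5 and were homozygous for an Nrf2 D29H allele designed to stay silent until Cre acts on it. The D29H group received adenovirus carrying Cre and the labelled-knockout group received empty adenovirus, both at a multiplicity of infection of 500 in pyruvate-free medium with 10% serum, and RNA was collected at day 4. No group of the series received Cre without a mutant allele, so an effect of Cre and an effect of the allele cannot be told apart. The labels do not say whether libraries of a group came from separate embryos or cultures, so the p-values measure the spread between these libraries, which may be technical.

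NRF2, encoded by Nfe2l2, is a basic leucine zipper factor that pairs with small MAF proteins on antioxidant response elements of genes for glutathione synthesis, detoxification and iron handling. In unstressed cells the adaptor KEAP1 holds NRF2 by motifs in its amino-terminal domain and hands it to a ubiquitin ligase, so that little of it reaches the nucleus. The residue changed in D29H lies in one of the 2 motifs that KEAP1 recognises, and changes there are found in human tumours. Known NRF2 targets also include genes that store iron, break down heme and export organic anions.

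Gene levels below are in CPM, read counts scaled to the library total and TMM factor, listed in the order of replicates 1, 2 and 3, and each ± beside a log2 fold change is the standard error of the fit. Library totals ran from 14963004 to 23818477 counted reads, the lowest in labelled-knockout replicate 3. D29H replicate 1 and labelled-knockout replicate 3 had the widest deviation from the mean of their own group, with SDs of 0.216 and 0.253 (log2) over genes against 0.173 to 0.196 in the other 4 libraries. Nfe2l2 reads were 50.7, 58.4 and 53.7 CPM in the D29H libraries and 47.6, 40.9 and 42.4 CPM in the labelled-knockout libraries (log2 fold change 0.31 ± 0.10, adjusted p = 0.0713), so reads of the gene do not separate a silent from an active allele, and the control is called labelled knockout throughout. Keap1 was at 46.6, 41.2 and 52.7 CPM against 41.8, 41.2 and 46.2 CPM, and the groups overlapped.

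Of 14370 genes tested, 498 were higher in D29H (3.47%) and 184 were lower (1.28%) at an adjusted p under 0.05. Only 28 of the 498 and 1 of the 184 belonged to a list of 44 tested classic NRF2 targets, which leaves 470 genes that rose and 183 that fell. Among these, 50 rose and 3 fell by 2-fold or more, and the median log2 fold change was 0.55 for those that rose and -0.44 for those that fell. The counts rested on few libraries: 85 genes rose and 9 fell without D29H replicate 2, 72 and 10 without D29H replicate 3, and 1194 and 998 without D29H replicate 1. A call was made in all 6 fits that leave out 1 library for 62 of the genes that rose (0.431% of those tested) and for 7 that fell (0.0487%), of which 43 and 7 lie outside the classic targets. DESeq2 on the same counts called 402 genes higher and 347 lower.

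Among the classic targets the largest rises were those of Gsta1, an alpha-class glutathione transferase, and Nqo1, the quinone reductase that is a standard readout of NRF2. Nqo1 was at 137, 111 and 118 CPM in D29H and 11.1, 8.16 and 7.88 CPM in the labelled knockout, 13.4-fold higher with no overlap (adjusted p = 2.50e-16). Gsta1 had 29, 38 and 36 reads against 1, 1 and 2 reads. The 1 classic target that fell was Ugdh, which makes UDP-glucuronic acid for conjugation and for matrix sugars, at 106, 96.5 and 101 CPM against 128, 129 and 155 CPM (log2 fold change -0.44 ± 0.10, adjusted p = 0.0186, called in 4 of the 6 fits without 1 library).

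The promoter windows of 3 genes that rose, Pir, Tfec and Mafg, are printed here because each holds the core of the antioxidant response element, TGACNNNGC. Pir encodes pirin, an iron-binding nuclear protein, Tfec a basic helix-loop-helix factor of the MITF family, and Mafg one of the small MAF partners of NRF2. The windows run from 250 bases before to 50 bases after the RefSeq start on GRCm38.p6, 5′ to 3′ along the gene, with each match in capitals. All matches here lie on the strand opposite to the gene, so that the first one in Pir reads TGACTCAGC, the one in Tfec TGACACAGC and the one in Mafg TGACCGTGC.
Pir (chrX:164269181-164269480, plus strand): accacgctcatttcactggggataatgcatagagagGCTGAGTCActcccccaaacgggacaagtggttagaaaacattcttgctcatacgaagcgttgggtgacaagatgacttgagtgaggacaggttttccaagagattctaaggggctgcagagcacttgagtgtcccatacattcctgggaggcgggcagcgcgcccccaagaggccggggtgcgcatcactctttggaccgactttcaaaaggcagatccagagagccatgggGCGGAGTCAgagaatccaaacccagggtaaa
Tfec (chr6:16898392-16898691, minus strand): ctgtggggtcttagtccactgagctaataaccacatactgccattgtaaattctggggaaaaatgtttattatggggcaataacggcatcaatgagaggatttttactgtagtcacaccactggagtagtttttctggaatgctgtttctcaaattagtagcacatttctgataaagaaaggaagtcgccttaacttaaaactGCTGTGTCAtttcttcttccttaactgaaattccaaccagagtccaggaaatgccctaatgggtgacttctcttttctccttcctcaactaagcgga
Mafg (chr11:120633498-120633797, minus strand): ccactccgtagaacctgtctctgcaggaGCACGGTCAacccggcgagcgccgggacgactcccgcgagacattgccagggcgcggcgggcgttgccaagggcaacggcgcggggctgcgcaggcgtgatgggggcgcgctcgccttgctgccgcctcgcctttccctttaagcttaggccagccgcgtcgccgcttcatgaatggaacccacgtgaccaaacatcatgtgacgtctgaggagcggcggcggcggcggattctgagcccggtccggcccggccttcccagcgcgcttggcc
The first match in Pir starts 214 bases before the transcription start, that in Tfec 47 bases and that in Mafg 222 bases, and the other match in Pir lies just after the start. Searched on both strands, the 9-base core was found in 4071 of 32851 promoter windows of RefSeq (12.4%). Of tested genes with a window, 17.0% held it in at least 1 window, and the share was 36.4% of classic targets that rose (8 of 22), 16.6% of the other genes that rose (54 of 325) and 12.5% of the genes that fell (15 of 120). Of the 43 other genes with a rise in all 6 fits without 1 library, 29 had a window and 5 of these held the core, namely Pir, Tfec, Tmem37, Cpxm1 and Ddit4l. A match of these letters is a description of the sequence and shows no binding.

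Pir itself was at 6.65, 6.89 and 6.76 CPM in D29H and 3.87, 3.33 and 3.23 CPM in the labelled knockout (log2 fold change 0.95 ± 0.17, adjusted p = 0.00217), with all D29H libraries above all others. Tfec rose from 0.747, 0.470 and 0.404 to 2.53, 3.35 and 3.15 CPM, a 5.39-fold change (adjusted p = 2.42e-05) at a low level of expression. Mafg was at 119, 153 and 154 CPM against 104, 102 and 87.1 CPM (log2 fold change 0.54 ± 0.11, adjusted p = 0.00892), and the call was made in 4 of the 6 fits without 1 library. Mafg was the 1 called gene among 12 tested regulators and partners of NRF2. Tfec, Tmem37 and Ddit4l were picked after their values had been seen.

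Single genes of iron export and heme breakdown and both ferritin chains rose, and the main iron uptake receptor fell. Of the 29 tested iron and heme genes 6 rose and 1 fell, and the median log2 fold change of the list was 0.12 against 0.00 over all genes tested, of which 3.47% rose and 1.28% fell. The 6 that rose were the iron exporter ferroportin (Slc40a1), heme oxygenase 1 (Hmox1), biliverdin reductase B (Blvrb), the heme transporter HRG1 (Slc48a1) and the heavy and light chains of ferritin (Fth1 and Ftl1); the 1 that fell was the transferrin receptor (Tfrc), through which cells take up iron. All but Slc48a1 and Tfrc are on the list of classic targets. Of the same functions, Hmox2 and Blvra, the other heme oxygenase and biliverdin reductase, had log2 fold changes of -0.26 ± 0.11 and -0.02 ± 0.12, and the ferroxidases Cp and Heph, which assist iron export, 0.62 ± 0.38 and 0.26 ± 0.25, none past the threshold. These 4 were picked after their values had been seen. Without 1 library, between 5 and 8 genes of the list rose and between 1 and 4 fell.

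**Figure D1:**
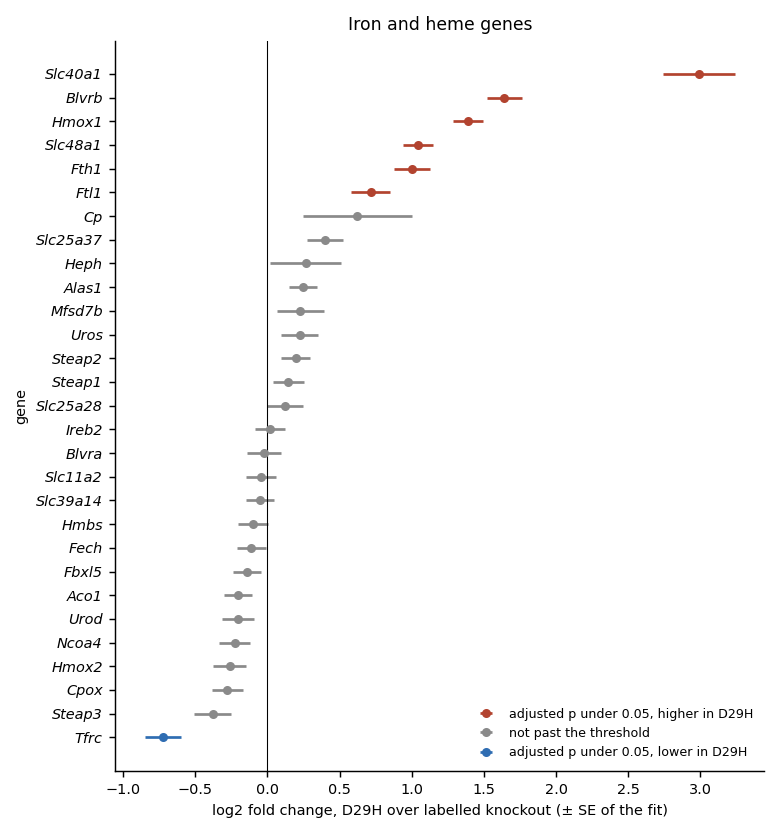
Log2 fold change of each of the 29 tested iron and heme genes, D29H over labelled knockout, with the standard error of the fit (3 libraries per group). The 6 genes past the threshold upward lie between 0.72 and 2.99, Tfrc lies at -0.73, and the other 22 genes are grey.

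Slc40a1 (chr1:45908068-45926523) was at 6.23, 6.43 and 4.72 CPM in D29H and 0.615, 0.769 and 0.808 CPM in the labelled knockout. Slc48a1 (chr15:97784355-97792692), which carries heme out of endosomes and lysosomes into the cytosol, was at 159, 145 and 141 CPM against 73.0, 77.9 and 65.2 CPM. Its log2 fold change was 1.04 ± 0.10 (adjusted p = 3.20e-07), the groups were far apart, and the call was made in all 6 fits without 1 library. Hmox1, which opens the heme ring and frees its iron, was at 153, 128 and 132 CPM against 53.7, 49.7 and 54.0 CPM, and Blvrb, which reduces biliverdin and flavins, at 60.1, 51.7 and 56.7 CPM against 20.3, 19.4 and 13.8 CPM. The D29H libraries lay above the labelled-knockout libraries for each of these genes.

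For storage, Fth1 was at 948, 954 and 750.2 CPM in D29H and 480.5, 446 and 399.8 CPM in the labelled knockout, and Ftl1 at 6013, 5219.9 and 6099.8 CPM against 3611, 3714 and 3224 CPM. The log2 fold changes were 1.00 ± 0.13 (adjusted p = 2.04e-05) and 0.72 ± 0.14 (adjusted p = 0.00425). Per length, as the authors' FPKM, Ftl1 was the most abundant gene of the list with a mean of 6030 ± 442 FPKM in D29H (SD, n = 3) and 3588 ± 248 FPKM in the labelled knockout, followed by Fth1 with 1032 ± 136 and 504 ± 45.2 FPKM. Ferritin has many processed pseudogenes, and how the authors counted reads that fit several copies is not given in the sources used here. Tfrc (chr16:32608920-32632794) went the other way, with 98.2, 72.5 and 81.5 CPM in D29H against 119, 133 and 166 CPM (log2 fold change -0.73 ± 0.12, adjusted p = 0.00137), and again the groups did not overlap.

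The iron sensors and regulators of the list did not pass the test. Ireb2, the iron regulatory protein 2, had a log2 fold change of 0.02 ± 0.10, Aco1, which is iron regulatory protein 1 when it lacks its cluster, -0.20 ± 0.10, Fbxl5, which degrades the former, -0.14 ± 0.10, and Ncoa4, the ferritin autophagy receptor, -0.23 ± 0.11. Heme synthesis genes lay between -0.28 (Cpox) and 0.25 (Alas1), with none called. Outside the list, Scara5, a scavenger receptor that takes up ferritin, had 25, 16 and 19 reads in D29H and 2, 2 and 2 reads in the labelled knockout (log2 fold change 3.16 ± 0.54, adjusted p = 0.00158). Scara5 (chr14:65666403-65764826) and the regulators named in this paragraph were picked after their values had been seen.

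Beyond the classic targets, detoxification changed in few genes. Of 73 tested genes of xenobiotic oxidation and conjugation 12 rose and none fell (over all genes tested, 3.47% rose and 1.28% fell), but 9 of the 12 are classic targets, and the median log2 fold change of the list was 0.04. The remaining 3 were Mgst2, a membrane glutathione transferase, Gstm6, a mu-class cytosolic transferase, and Cyp4f17, a fatty acid hydroxylase. Mgst2 was at 2.67, 2.80 and 2.41 CPM against 0.967, 0.983 and 0.337 CPM (log2 fold change 1.70 ± 0.31, adjusted p = 0.00291). Gstm6 was at 1.40, 2.02 and 1.94 CPM against 0.835, 0.342 and 1.01 CPM (adjusted p = 0.0323), and it belongs to a tandem family of near-identical genes in which reads can be shared. Gstm6 was called in 3 of the 6 fits without 1 library and Cyp4f17 in 1. Outside these lists 2 further genes were called in all 6 fits without 1 library and were named after their values had been seen: Prdx6, a peroxiredoxin that repairs oxidised phospholipids, at 179, 153 and 151 CPM against 111, 113 and 108 CPM, and Mt1, a metallothionein that binds zinc, at 72.4, 65.9 and 60.9 CPM against 49.0, 47.2 and 44.7 CPM. Mt1 lost its call in at least 1 of the other alternatives, which keep all 6 libraries.

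Single transporters rose or fell. Of 225 tested solute carriers 11 rose (4.89%) and 4 fell (1.78%), shares near those over all genes tested (3.47% and 1.28%), with a median log2 fold change of -0.03, and of 32 tested ABC transporters 6 rose and 1 fell, with a median of 0.06. Solute carriers with a rise or fall numbered 20 and 15 without D29H replicate 1 but 4 and 1 without D29H replicate 2 and likewise without D29H replicate 3, and the ABC transporters 6 and 3 against 2 and 0. Apart from Slc40a1 and Slc48a1, the rises called in all 6 fits without 1 library were those of Slc22a23, an orphan member of the organic ion carriers, at 5.76, 6.15 and 5.79 CPM against 2.90, 2.09 and 2.49 CPM (log2 fold change 1.24 ± 0.19, adjusted p = 3.57e-04) and Slc22a17, a receptor for lipocalin 2, at 24.5, 31.7 and 33.5 CPM against 21.1, 17.4 and 14.7 CPM (log2 fold change 0.75 ± 0.13, adjusted p = 0.00229). The groups did not overlap for either. Of the ABC transporters, Abcc5, which exports nucleotide analogues and glutamate conjugates, was at 111, 169 and 152 CPM against 96.2, 87.6 and 88.4 CPM (adjusted p = 0.00319), beside Abcc1, the classic exporter of glutathione conjugates, at 163, 203 and 191 CPM against 102, 102 and 105 CPM (adjusted p = 2.04e-05). Abcd4, a lysosomal cobalamin transporter, and Abcc4, an exporter of cyclic nucleotides and prostaglandins, had log2 fold changes of 0.46 ± 0.11 and 0.55 ± 0.13. Abcg2, the breast cancer resistance protein, fell by 1.32-fold and was called in 1 of the 6 fits without 1 library. The 4 solute carriers that fell were the lactate and monocarboxylate transporters Slc16a3 and Slc16a1, the amino acid transporter Slc38a4 (-0.40 ± 0.11) and Slc35g1 (-0.76 ± 0.19).

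**Figure D2:**
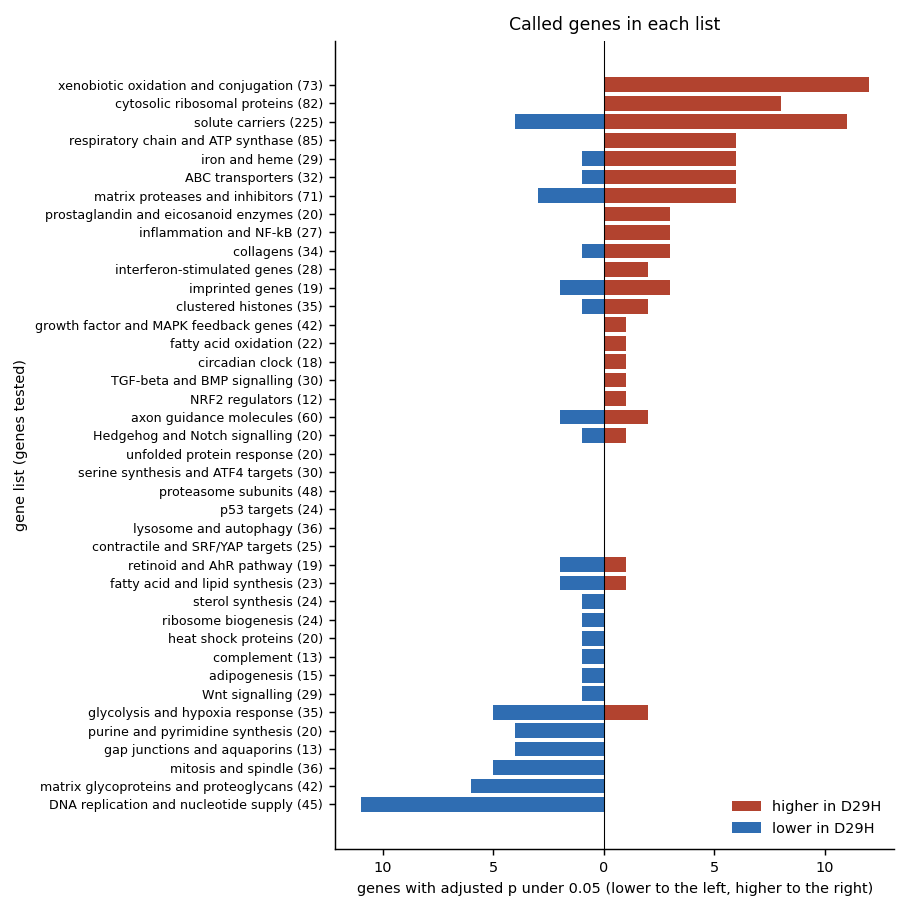
Number of genes with an adjusted p under 0.05 in each of 40 gene lists, higher in D29H to the right (red) and lower to the left (blue); the number of genes tested stands behind each name. The xenobiotic list has 12 genes that rose, the DNA replication list 11 that fell, and 6 lists hold none.

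The 12 protein-coding genes with the largest rises outside the classic targets, among genes with a mean of at least 100 reads and no overlap between groups, were of mixed function. Pou6f1, a POU homeobox factor, was at 5.85, 8.86 and 11.0 CPM in D29H and 4.44, 4.27 and 3.23 CPM in the labelled knockout (log2 fold change 1.08 ± 0.20), with the lowest of its D29H values in replicate 1. Ampd3, which deaminates AMP to IMP, was at 7.86, 8.13 and 9.30 CPM against 4.09, 4.36 and 4.18 CPM (log2 fold change 1.00 ± 0.16, adjusted p = 4.91e-04). Cyb5a, the microsomal electron carrier cytochrome b5, was at 124, 119 and 124 CPM against 69.7, 63.2 and 59.0 CPM, tight in both groups (log2 fold change 0.93 ± 0.10, adjusted p = 1.22e-06). Cpxm1, a secreted carboxypeptidase-like protein, was at 10.4, 8.54 and 9.35 CPM against 4.79, 5.04 and 5.66 CPM. Slirp, which stabilises mitochondrial messenger RNA, was at 20.3, 26.3 and 23.7 CPM against 14.2, 12.7 and 11.8 CPM (adjusted p = 1.73e-04), and Pet100, an assembly factor of cytochrome c oxidase in mitochondria, at 18.4, 27.1 and 31.4 CPM against 15.1, 14.6 and 11.4 CPM (adjusted p = 0.00137).

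Slc48a1 and Pir complete the 7 of the 12 genes whose rise was called in all 6 fits without 1 library. The other 5 depended on single libraries. Kcp, a secreted modulator of BMP signalling, Kif5a, a neuronal kinesin heavy chain, and Pdk4, the kinase that switches off pyruvate dehydrogenase, were each called in 4 of those fits, with log2 fold changes of 0.99 ± 0.23, 0.84 ± 0.19 and 0.82 ± 0.18. Sned1, a matrix protein, and Pou6f1 were called in 5. For Kif5a the lowest D29H library and the highest labelled-knockout library were almost level, at 6.553 and 6.549 CPM.

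**Figure D3:**
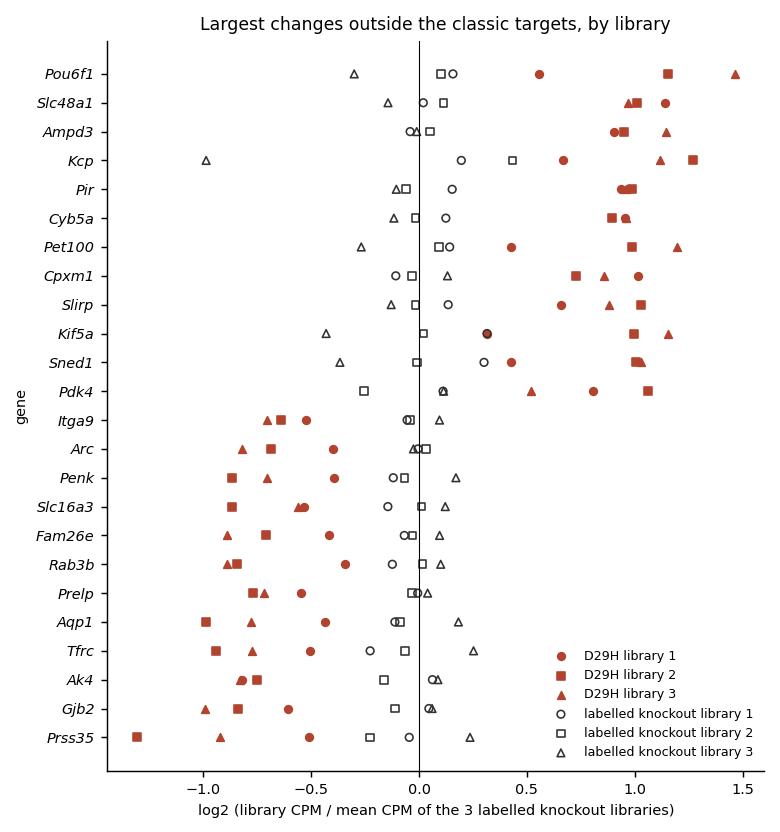
Level of the 12 genes with the largest rises and the 12 with the largest falls outside the classic targets in each library, as log2 of its CPM over the mean CPM of the 3 labelled-knockout libraries (filled, D29H; open, labelled knockout; shapes, replicates). The groups do not overlap for any of the 24 genes, which the selection rule required, and D29H replicate 1 (filled circles) is the D29H library closest to the labelled knockout for most of the falls.

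Several genes rose further but at low counts, and these were picked after their values had been seen. Prl2c3, a placental prolactin-family hormone also called proliferin, had 40, 23 and 25 reads in the D29H libraries and 2, 1 and 0 in the labelled-knockout libraries, 88 reads against 3 and a depth-scaled ratio of 27.6 with an exact 95% counting interval of 9.15 to 137. The interval covers counting noise in the pooled reads alone and leaves out the spread between libraries. Prl2c3 is one of a set of near-identical tandem genes at chr13:12790822-12800078, so the copy that the reads came from is uncertain. Cacng8, a calcium channel gamma subunit, was at 2.95, 2.99 and 3.05 CPM against 0.835, 1.24 and 1.08 CPM (adjusted p = 0.00179), and Car8, a carbonic anhydrase-related protein that binds the inositol trisphosphate receptor, at 5.29, 4.41 and 5.51 CPM against 2.20, 2.05 and 1.48 CPM (adjusted p = 3.57e-04). Artn, the neurotrophic ligand artemin, was at 5.80, 4.73 and 5.37 CPM against 2.24, 1.71 and 2.63 CPM (adjusted p = 6.01e-04), and Cela1, a secreted elastase, at 2.57, 2.71 and 2.27 CPM against 0.923, 0.983 and 0.808 CPM (adjusted p = 0.00439). These 5 genes were called in all 6 fits without 1 library. Tet1, which oxidises 5-methylcytosine, and Fgfbp1, which releases fibroblast growth factors from the matrix, had log2 fold changes of 1.38 ± 0.29 and 2.18 ± 0.43 and were called in 4 and 5 of these fits.

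At higher levels, 3 cytoskeletal and signalling genes of this kind also rose in all 6 fits, named after their values had been seen. Map1a, a microtubule-associated protein, was at 70.1, 81.1 and 84.6 CPM against 44.3, 47.1 and 44.9 CPM (adjusted p = 2.64e-05). Dmpk, the myotonic dystrophy kinase, was at 99.9, 113 and 115 CPM against 74.4, 66.5 and 56.2 CPM (adjusted p = 2.29e-04), and Arnt2, a partner of hypoxia and aryl hydrocarbon factors, at 13.1, 15.5 and 15.3 CPM against 7.91, 9.49 and 9.56 CPM (adjusted p = 0.00364). For each of them the D29H libraries lay above the others.

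Falls were smaller than rises. Of the 12 largest, 6 were called in all 6 fits without 1 library: Gjb2, Ak4, Tfrc, Aqp1, Prelp and Slc16a3. Gjb2, the gap junction protein connexin 26, was at 23.1, 19.6 and 17.7 CPM in D29H and 36.3, 32.5 and 36.6 CPM in the labelled knockout (log2 fold change -0.80 ± 0.11, adjusted p = 1.29e-04). Aqp1, a water channel, was at 68.9, 47.1 and 54.4 CPM against 86.4, 87.8 and 106 CPM (log2 fold change -0.71 ± 0.12), with the highest D29H value in replicate 1. Prelp, a leucine-rich proteoglycan that anchors basement membranes, was at 9.92, 8.50 and 8.79 CPM against 14.4, 14.1 and 14.9 CPM (log2 fold change -0.67 ± 0.13, adjusted p = 0.00384). Penk, which encodes proenkephalin, Arc, an immediate early gene, and Itga9, an integrin alpha chain, had log2 fold changes of -0.64 ± 0.13, -0.63 ± 0.14 and -0.62 ± 0.14 and were called in 4 of the 6 fits. Prss35, a protease-like secreted protein, had a log2 fold change of -0.87 ± 0.18 and was called in 4, Rab3b, a vesicle GTPase, -0.67 ± 0.16 in 3, and Fam26e, a calcium homeostasis modulator, -0.65 ± 0.17 in 2 of these fits.

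Of 13 tested gap junction and aquaporin genes 4 fell and none rose (over all genes tested, 1.28% fell and 3.47% rose). Beside Gjb2 and Aqp1 the genes that fell were Gja1, connexin 43, the main gap junction protein of fibroblasts, at 290.0, 233 and 236 CPM against 325, 325 and 411 CPM (adjusted p = 0.0234), and Aqp5 at 11.0, 8.59 and 10.1 CPM against 13.2, 14.4 and 14.9 CPM (adjusted p = 0.025). The list's median log2 fold change was -0.08, and 2 to 4 of its genes fell when 1 library was left out. In mean level relative to the 6 libraries (log2), D29H replicate 1 (0.028) lay above labelled-knockout replicate 1 (0.018).

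Glycolysis and hypoxia-response genes were shifted down in part. Of 35 tested genes 5 fell and 2 rose, the median log2 fold change was -0.20, and the D29H libraries lay wholly below the others for 17 genes and wholly above for 2 (over all genes tested, 13.0% below and 12.4% above). Slc16a3, the monocarboxylate transporter that exports lactate, was at 40.7, 32.3 and 39.9 CPM against 53.3, 59.4 and 64.1 CPM (log2 fold change -0.64 ± 0.11, adjusted p = 0.00133). Ak4, an adenylate kinase of the mitochondrial matrix, was at 9.78, 10.3 and 9.72 CPM against 18.1, 15.5 and 18.4 CPM (log2 fold change -0.80 ± 0.12, adjusted p = 4.53e-04), and the groups were well apart for both. The glycolytic enzymes Pgam1 and Ldha and the collagen prolyl hydroxylase P4ha1 fell too, with log2 fold changes of -0.47 ± 0.11, -0.55 ± 0.14 and -0.58 ± 0.11. Of the same list 2 genes rose: Eno2, an enolase (0.52 ± 0.13), and Car9, a carbonic anhydrase (0.70 ± 0.20), called in 4 and 1 of the 6 fits. Without 1 library the list had 2 to 13 falls, and DESeq2 called 11.

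Part of the DNA replication machinery was lower in D29H. Of 45 tested genes 11 fell and none rose, with a median log2 fold change of -0.18 and 21 genes wholly below the other group (over all genes tested, 1.28% fell and 13.0% lay wholly below). They included 5 subunits of the MCM helicase, the DNA ligase Lig1, the primase-polymerase subunits Prim2 and Pola1, and Rrm1 of ribonucleotide reductase. Mcm2 was at 77.9, 70.0 and 75.7 CPM against 90.0, 104 and 112 CPM and Mcm3 at 73.3, 58.7 and 63.3 CPM against 82.3, 88.5 and 97.9 CPM, which are log2 fold changes of -0.45 ± 0.10 and -0.46 ± 0.11 (adjusted p = 0.0147 and 0.015). Ccne1, the cyclin that starts S phase, was at 52.9, 46.9 and 48.0 CPM against 66.3, 64.9 and 76.2 CPM (log2 fold change -0.49 ± 0.10, adjusted p = 0.0083). In each of the 3 genes D29H replicate 1 held the highest D29H value and the groups did not overlap.

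Mitotic genes went the same way, with 5 of 36 falling, none rising and a median of -0.30 (over all genes tested, 1.28% fell and 3.47% rose). Ndc80, a kinetochore protein, was at 28.1, 22.6 and 23.5 CPM against 33.8, 34.2 and 39.5 CPM (log2 fold change -0.53 ± 0.11, adjusted p = 0.00892), and Ect2, which drives cytokinesis, Top2a, topoisomerase II alpha, and Aurka, a mitotic kinase, had log2 fold changes of -0.44 ± 0.10, -0.46 ± 0.12 and -0.38 ± 0.11. In purine and pyrimidine synthesis 4 of 20 genes fell and none rose, to be read against the same shares: Ppat and Paics, enzymes of de novo purine synthesis, Adsl, and Prps1, which makes their ribose donor, at log2 fold changes from -0.46 to -0.37. Labelled-knockout replicate 3 stood highest in the mean level of these 3 lists (0.155, 0.277 and 0.196 above the mean of the 6 libraries on the log2 scale), and its part in the falls was not tested beyond leaving it out. Without that library the falls numbered 6, 2 and 2, and without D29H replicate 1 they numbered 14, 18 and 11; without labelled-knockout replicate 2 they numbered 4, 3 and 0; without D29H replicate 2, and likewise without D29H replicate 3, none was called. DESeq2 called 11, 10 and 7 lower, and with length and GC offsets 9, 4 and 1 fell.

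**Figure D4:**
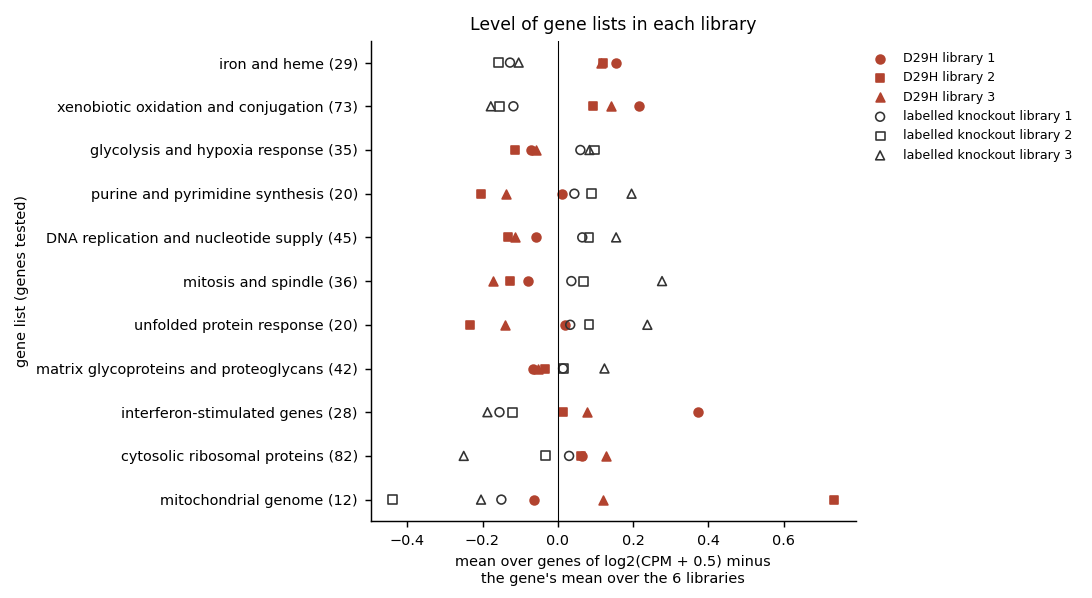
Mean level of 11 gene lists in each library, as the mean over tested genes of log2(CPM + 0.5) minus the gene's mean over the 6 libraries (filled, D29H; open, labelled knockout; shapes, replicates). The mean of the iron and heme list separates the groups with little spread, although 22 of its 29 genes were not called. Other lists shown, such as glycolysis and hypoxia response, also separate the groups. D29H replicate 1 stands alone at 0.372 for interferon-stimulated genes and D29H replicate 2 at 0.734 for the mitochondrial genome.

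Some matrix glycoproteins and proteoglycans were lower in D29H. Of 42 tested genes 6 fell and none rose at the adjusted threshold in edgeR, with a median log2 fold change of -0.16 (over all genes tested, 1.28% fell and 3.47% rose). Efemp1 (fibulin 3), Fbln5 (fibulin 5, which assembles elastic fibres) and Loxl4, a lysyl oxidase that cross-links them, had log2 fold changes of -0.59 ± 0.12, -0.52 ± 0.12 and -0.42 ± 0.10. Fbln5 was at 366, 318 and 318 CPM against 454, 448 and 534 CPM, with no overlap (adjusted p = 0.0118). Prelp, Aspn and elastin itself (Eln, -0.35 ± 0.10) complete the 6. Without D29H replicate 1, 15 of the list fell and 3 rose, without D29H replicate 2 or 3 only 1 fell, and 2 rose without labelled-knockout replicate 1 and likewise without labelled-knockout replicate 3. Without labelled-knockout replicate 2, 3 fell, and DESeq2 called 10 lower. Prelp alone was called in all 6 fits.

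Of 34 tested collagens 3 rose and 1 fell, against 3.47% and 1.28% over all genes tested (8 and 2 without D29H replicate 1, none without D29H replicate 2 or 3), and the main fibroblast collagen Col1a1 was at 9359, 9372 and 9309 CPM against 10322, 10836 and 10519.5 CPM (log2 fold change -0.18 ± 0.14, adjusted p = 0.46). Col7a1, of anchoring fibrils, Col27a1 and Col11a2 rose by 0.66 ± 0.14, 0.56 ± 0.12 and 0.80 ± 0.20 on the log2 scale, and Col8a1 had -0.57 ± 0.12. For each of the 3 that rose D29H replicate 1 was the lowest D29H library. Matrix proteases and their inhibitors showed 6 rises and 3 falls in 71 genes, to be read against the same shares (8 and 7 without labelled-knockout replicate 1, 2 and 0 without D29H replicate 3). Adam23, a disintegrin without protease activity, was at 22.8, 24.4 and 24.5 CPM against 16.7, 14.9 and 14.4 CPM, and Mmp3, stromelysin 1, at 24.7, 22.0 and 20.9 CPM against 16.0, 14.9 and 15.4 CPM, both called in all 6 fits without 1 library (adjusted p = 0.00217 and 0.00904). Adam33 and Serpinb9, a granzyme inhibitor, had 0.57 ± 0.13 and 0.57 ± 0.14, and the urokinase gene Plau and Adamts1 had -0.46 ± 0.10 and -0.37 ± 0.10.

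Respiratory chain subunits showed 6 rises and no fall in 85 nuclear genes, with a median log2 fold change of 0.11 (over all genes tested, 3.47% rose and 1.28% fell). Atp5k, the e subunit of ATP synthase, was at 70.3, 82.9 and 101 CPM against 46.8, 47.5 and 60.0 CPM (log2 fold change 0.73 ± 0.12, adjusted p = 0.00133) and was called in all 6 fits without 1 library. Cox7c of cytochrome c oxidase, Ndufa3 of complex I and Atp5e had log2 fold changes of 0.55 ± 0.12, 0.49 ± 0.11 and 0.53 ± 0.14. Of 82 cytosolic ribosomal protein genes 8 rose and none fell (median 0.15), to be read against the same shares. Those with the smallest adjusted p were Rpl39l, Rpl41, Rpl38 and Rps28 at 0.78 ± 0.16, 0.61 ± 0.14, 0.51 ± 0.13 and 0.55 ± 0.14. Without D29H replicate 1 the list had 9 rises and 2 falls. Without D29H replicate 2 or without D29H replicate 3 no ribosomal protein gene was called, and without labelled-knockout replicate 2 the rises numbered 3. The respiratory list had 14 rises and 6 falls without D29H replicate 1, 15 rises without labelled-knockout replicate 1, 4 without labelled-knockout replicate 3, 3 without D29H replicate 2 and 1 without D29H replicate 3, and DESeq2 called 6 higher and 1 lower. With offsets for gene length and GC content, 5 respiratory and 4 ribosomal genes rose. In mean level relative to the 6 libraries (log2), labelled-knockout replicate 3 stood lowest for both lists, at -0.165 (respiratory) and -0.25 (ribosomal). Labelled-knockout replicate 1 was at 0.037 and 0.03. Without labelled-knockout replicate 3, 8 ribosomal genes rose and the ribosomal median was 0.04.

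Transcripts of the mitochondrial genome were highest in D29H replicate 2 for all 12 tested genes. Of the 12, 7 rose, with a median log2 fold change of 0.62 over the 12. mt-Nd6, the 1 complex I subunit encoded on the light strand, was at 209.8, 368 and 248 CPM against 172, 144 and 164 CPM (log2 fold change 0.79 ± 0.15, adjusted p = 0.00319). mt-Co1, of cytochrome c oxidase, was at 4417, 7718 and 4424 CPM against 4099.7, 3319 and 3203 CPM (adjusted p = 0.0369). Without D29H replicate 2, 1 of the 12 was called and the median was 0.37; without D29H replicate 3, 2 were called and the median was 0.73, without labelled-knockout replicate 2, 3 were called, and DESeq2 called 1. The share of all reads on these genes was 0.982%, 1.77% and 1.06% in D29H and 0.905%, 0.725% and 0.733% in the labelled knockout. The mitochondrial gene names were picked after their values had been seen.

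Non-coding transcripts and the longest and shortest genes also leaned towards D29H. Of 764 tested lincRNA, antisense and processed transcript genes 60 rose and none fell at the adjusted threshold in edgeR (2 were lower at an unadjusted p under 0.05, and none in DESeq2 or limma), and the medians of the 3 classes were 0.38, 0.43 and 0.39 against -0.01 for protein-coding genes. Of protein-coding genes 3.24% rose and 1.33% fell, and of all genes tested 3.47% rose and 1.28% fell. The non-coding transcripts were highest in D29H replicate 2 for 343 genes and in D29H replicate 3 for 223, but in D29H replicate 1 for 61. The nuclear RNAs Malat1 and Neat1, named after their values had been seen, were at 613, 1090.2 and 971 and 488, 799 and 834 CPM in D29H and 595, 537 and 584 and 480.4, 377 and 403 CPM in the labelled knockout. Meg3, a maternally expressed imprinted RNA, was at 634, 1093 and 1008 CPM against 618, 488 and 472 CPM (log2 fold change 0.79 ± 0.16, adjusted p = 0.00551), so that in all 3 RNAs replicate 1 of D29H lay close to the labelled knockout. Without D29H replicate 2 or 3 at most 2 genes of any of the 3 classes were called, and without D29H replicate 1 the classes had 138 rises and 2 falls.

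By length, 63 of 647 genes over 8000 bases rose (9.74%) and 1 fell, against 156 of 5754 genes of 2001 to 4000 bases (2.71%) and 104 falls. The shortest class, of 1 to 1000 bases, had 58 rises (4.66%) and 7 falls in 1245 genes, with a median of 0.13. With length and GC offsets the counts were 14 and 12 for the longest class and 19 and 18 for the shortest. Replicate 1 was the lowest D29H library for 8 of the 12 largest rises (Ampd3, Kcp, Kif5a, Pet100, Pir, Pou6f1, Slirp and Sned1) and the highest for 11 of the 12 largest falls, Ak4 being the exception. Whether RNA recovery or quality differed between the libraries was not tested.

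Of 19 tested imprinted genes 3 rose and 2 fell, against 3.47% and 1.28% over all genes tested. Nnat, a small membrane proteolipid, and Mirg, an RNA of the Dlk1-Meg3 cluster, rose by 0.68 ± 0.14 and 0.49 ± 0.11 on the log2 scale beside Meg3, while the paternally expressed Dlk1 of that cluster, a Notch-like inhibitor of adipogenesis, was at 47.4, 41.8 and 43.0 CPM against 54.5, 64.7 and 60.9 CPM (log2 fold change -0.45 ± 0.10, adjusted p = 0.0144). Cdkn1c, the growth inhibitor p57, had -0.38 ± 0.11. None of the 5 was called in all 6 fits without 1 library.

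Interferon-stimulated genes had a list median of 0.37, which was 0.23 without D29H replicate 1. Of 28 tested genes 2 rose and none fell (over all genes tested, 3.47% rose and 1.28% fell). The genes that rose were Stat2, a subunit of the interferon-activated ISGF3 complex, at 38.8, 41.8 and 41.8 CPM against 32.3, 30.5 and 23.4 CPM (adjusted p = 0.0144), and Bst2, the virus-tethering protein tetherin, at 43.2, 33.7 and 37.1 CPM against 28.7, 29.2 and 28.8 CPM (adjusted p = 0.0355). For 17 of the 28 D29H replicate 1 held the highest value of the 6 libraries, and in the mean level of the list the other D29H libraries (0.014 and 0.077) also lay above all labelled-knockout libraries (-0.187 to -0.12). Without 1 library between 0 and 4 genes rose, with 0 without D29H replicate 3 and 4 without labelled-knockout replicate 1. Irf7, a factor that amplifies the response and was chosen after its values had been seen, was at 5.15, 3.26 and 2.64 CPM against 2.59, 2.95 and 2.76 CPM, and the groups overlapped. Both arms had received adenovirus. Rnf213, an interferon-responsive ubiquitin ligase outside the list, was named after its values had been seen: it was at 47.8, 60.2 and 62.5 CPM against 36.1, 38.0 and 34.6 CPM and was called in all 6 fits without 1 library (adjusted p = 0.00123). Its call was lost in at least 1 of the other alternatives, which keep all 6 libraries.

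Of 27 inflammation genes 3 rose and none fell in edgeR, with a median of 0.02 (over all genes tested, 3.47% rose and 1.28% fell). Beside Mmp3 the inflammation genes that rose were the neutrophil chemokines Cxcl5 and Cxcl1, at 57.1, 64.0 and 61.2 and 14.6, 12.9 and 13.8 CPM in D29H and 45.5, 39.7 and 47.8 and 10.4, 9.79 and 9.97 CPM in the labelled knockout. They were called in 3 and 1 of the 6 fits. Without 1 library the inflammation list had 1 to 4 rises, with 1 fall without D29H replicate 1, and DESeq2 called 2 higher and 1 lower. F3, tissue factor, the trigger of coagulation, lies outside the list and was named after its values had been seen; it was at 177, 178 and 164 CPM against 109, 116 and 129.6 CPM (adjusted p = 0.00384) and was called in all 6. In prostaglandin metabolism 3 of 20 genes rose, to be read against the same shares. The 3 were Ptgfr, the receptor of prostaglandin F, at 7.11, 6.38 and 5.65 CPM against 4.18, 3.55 and 3.70 CPM (adjusted p = 0.0157), and the classic targets Ptgr1 and Abcc4. Without D29H replicate 2, D29H replicate 3 or labelled-knockout replicate 2 a single rise was left in this list, and without D29H replicate 1 it had 4 rises and 2 falls. Ahr, the aryl hydrocarbon receptor, rose to 25.6, 27.0 and 23.3 CPM from 18.8, 16.5 and 17.4 CPM (log2 fold change 0.53 ± 0.11, adjusted p = 0.00959), while 2 retinoid genes of the same 19-gene list fell, Rdh10, which oxidises retinol (-0.41 ± 0.11), and Crabp2, a retinoic acid carrier (-0.40 ± 0.11). Ahr, Rdh10 and Crabp2 were called in 4, 3 and 2 of the 6 fits, and the list held no call without D29H replicate 2 or without labelled-knockout replicate 2.

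Signalling lists held few calls, to be read against the 3.47% of all genes that rose and the 1.28% that fell. Notch3, a Notch receptor, was the 1 rise in 20 Hedgehog and Notch genes (0.49 ± 0.11); Bmp1, a procollagen protease, the 1 in 30 TGF-beta and BMP genes (0.42 ± 0.12); Spred3, an inhibitor of MAPK signalling, the 1 in 42 growth factor genes (0.45 ± 0.12); and Cry2 the 1 in 18 clock genes (0.42 ± 0.11). Dkk3 was the 1 fall in 29 Wnt genes (-0.41 ± 0.11). Among 60 axon guidance molecules Plxna3 and Plxnb1, receptors of semaphorins, rose by 0.50 ± 0.11 and 0.49 ± 0.11, and the semaphorins Sema7a and Sema3d had -0.50 ± 0.13 and -0.57 ± 0.16. Single falls were Masp1 in 13 complement genes (-0.48 ± 0.10), Cebpd in 15 adipogenesis genes (-0.39 ± 0.11), Fbl, the fibrillarin of nucleoli, in 24 ribosome biogenesis genes (-0.45 ± 0.11) and Hsp90aa1 in 20 heat shock genes (-0.48 ± 0.13). None of these genes was called in all 6 fits without 1 library, and none of these lists held a call without D29H replicate 2 or without D29H replicate 3. Without D29H replicate 1 the rises and falls numbered 4 and 1 in Hedgehog and Notch genes, 3 and 0 in TGF-beta and BMP genes, 4 and 4 in growth factor genes, 3 and 2 in clock genes, 4 and 3 in axon guidance molecules, 1 and 2 in adipogenesis genes, 0 and 6 in ribosome biogenesis genes and 1 and 8 in heat shock genes, with the Wnt and complement counts as above.

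Few lipid genes were called, to be read against the 3.47% of all genes tested that rose and the 1.28% that fell. Of 24 tested sterol synthesis genes Cyp51, lanosterol demethylase, fell (-0.39 ± 0.11, adjusted p = 0.0473), and the median was -0.11. Of 23 fatty acid and lipid synthesis genes Lpin1, a phosphatidate phosphatase, rose (0.47 ± 0.12) and the elongase Elovl5 and the acyl-CoA ligase Acsl3 fell (-0.39 ± 0.10 and -0.43 ± 0.13). Pdk4 was the 1 called gene of 22 in fatty acid oxidation. Cyp51, Lpin1 and Elovl5 were called in 2 of the 6 fits without 1 library and Acsl3 in 3. Without D29H replicate 1 the falls numbered 3 in sterol synthesis, 3 in lipid synthesis (beside 3 rises) and 5 in fatty acid oxidation. Among 35 clustered histone genes, to be read against the same shares, Hist1h4h and Hist1h2bq rose (0.85 ± 0.19 and 0.77 ± 0.17) and Hist1h2ao fell (-1.34 ± 0.37), in a family of near-identical copies. Hist1h4h and Hist1h2bq were each called in 5 of the 6 fits without 1 library and Hist1h2ao in 2. No histone gene was called without D29H replicate 3, and DESeq2 called 2 higher and none lower.

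No gene was called in 6 lists in the main edgeR fit of 6 libraries: p53 targets (24 tested), serine synthesis and ATF4 targets (30), the unfolded protein response (20), lysosome and autophagy (36), proteasome subunits (48) and contractile genes (25). Their medians were 0.03, -0.18, -0.29, -0.09, -0.05 and -0.16. At an unadjusted p under 0.05 the genes that were lower numbered 0, 11, 13, 6, 7 and 5 and those that were higher 1, 0, 0, 1, 4 and 1; DESeq2 called 0, 3, 6, 0, 1 and 3 lower and none higher, and limma called 1 gene, of the serine and ATF4 list, lower. Psat1 and Phgdh, enzymes of serine synthesis, were at 425, 276 and 322 and 455, 287 and 333 CPM in D29H and 459, 457 and 439 and 502, 529 and 448 CPM in the labelled knockout (adjusted p = 0.0676 and 0.0509). Hspa5, the chaperone BiP, was at 1136, 749 and 829 CPM against 1213, 1169.9 and 1372 CPM (adjusted p = 0.0528), and in each of these genes D29H replicate 1 lay near the labelled knockout. Without that library 10 serine and ATF4 genes, 11 unfolded protein response genes and 8 proteasome genes fell, and 1 proteasome gene rose. In the same fit 6 contractile genes and 4 lysosome and autophagy genes fell, and 1 contractile gene and 1 p53 target rose. Other edgeR settings also called members of these lists. For example, 1 contractile gene fell in the single fit of all 12 libraries, and 1 p53 target rose with length and GC offsets. Without labelled-knockout replicate 1, 3 proteasome genes rose and 1 fell. Of the p53 targets Ccng1 and Phlda3 had log2 fold changes of -0.09 ± 0.12 and -0.25 ± 0.13; of the lysosomal genes Ctsd and Lamp1 had -0.15 ± 0.13 and -0.27 ± 0.12; of the proteasome Psma7 and Psmd8 had 0.19 ± 0.12 and -0.22 ± 0.11; and of the contractile genes Tagln and Acta2 had -0.06 ± 0.14 and -0.27 ± 0.14.

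Markers of fibroblasts dominated in every library. The summed level of 12 fibroblast markers was 23163 to 23962 CPM in D29H and 25110 to 26886 CPM in the labelled knockout, and none of the 12 was called in the edgeR fit of 6 libraries. DESeq2 and the single fit of all 12 libraries each called 1 of these markers lower, and requiring 50 reads on average gave 1 higher. Macrophage markers summed to 213 to 240 CPM against 189 to 232 CPM over 15 genes, led by Lyz2, with none called. Endothelial markers summed to 21.4 to 24.9 against 21.1 to 28.8 CPM, neural markers to 70.0 to 80.1 against 77.9 to 79.9 CPM and skeletal muscle markers to 2.01 to 2.08 against 1.71 to 2.69 CPM, with none called among the 5, 8 and 2 tested. All 6 erythroid markers found in the table were under 1 CPM in every library. Epithelial markers summed to 36.1 to 53.7 CPM against 59.7 to 76.2 CPM, which was mostly the keratin Krt19 (49.8, 32.2 and 41.9 against 55.7, 57.7 and 71.9 CPM, adjusted p = 0.0118), while the tight junction gene Cldn4 rose at under 1 CPM (0.562, 0.689 and 0.648 against 0.176, 0.0427 and 0.135 CPM, adjusted p = 0.0191); 9 of the 11 were under 1 CPM throughout. Krt19 was called in 4 and Cldn4 in 3 of the 6 fits without 1 library, and DESeq2 called 1 epithelial marker lower and none higher. Bone markers were 34.6 to 50.9 CPM against 32.7 to 34.8 CPM, nearly all Runx2, and cartilage markers 74.9 to 83.9 CPM against 84.0 to 94.0 CPM, with Col11a2 the 1 called gene. In bulk RNA, fewer cells of a type and less RNA per cell cannot be told apart, and the part of cell composition in the changes above was not tested.

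Fibroblasts carrying Keap1 R554Q, a change in the adaptor rather than in NRF2, formed the other comparison of the study, with their own controls of wild-type function that received empty virus. No library is shared between the 2 comparisons. There 533 of 14128 genes rose (3.77%) and 339 fell (2.40%). Of the 470 genes that rose in D29H outside the classic targets 117 also rose in R554Q, which is 24.9% of the first set and 24.1% of the 485 such genes that rose in R554Q. Of the 183 that fell, 27 also fell in R554Q, 14.8% of the first set and 7.99% of the second. Of the 43 genes with a rise in all 6 fits without 1 library 42 were tested in R554Q and 30 of these rose there; of the 7 with a fall, 3 fell there.

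**Figure D5:**
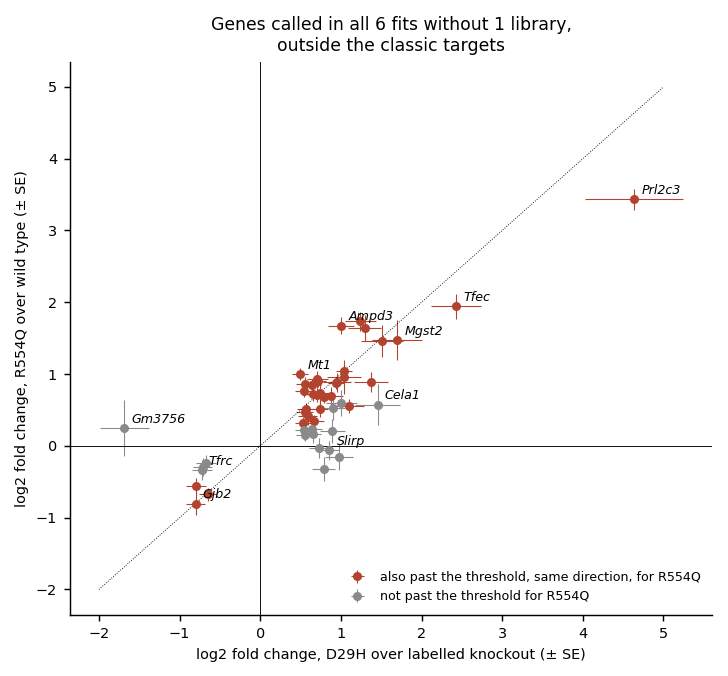
Log2 fold change of D29H over labelled knockout (x axis) and of R554Q over wild type (y axis), each with its standard error, for the 49 genes outside the classic targets that were called in all 6 fits without 1 D29H-comparison library and tested in both comparisons; the dotted line marks equal change. Red genes (33) also pass the threshold for R554Q, and the fitted value of Prl2c3 rests on 3 reads in the labelled knockout.

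Slc48a1 was 1.04 ± 0.10 in D29H and 1.05 ± 0.08 in R554Q on the log2 scale, Cyb5a 0.93 ± 0.10 and 0.88 ± 0.08, and Pir 0.95 ± 0.17 and 0.89 ± 0.13. Ampd3 was 1.00 ± 0.16 and 1.67 ± 0.12, Slc22a23 1.24 ± 0.19 and 1.74 ± 0.13, and Tfec 2.43 ± 0.31 and 1.95 ± 0.17. Gjb2 was -0.80 ± 0.11 and -0.80 ± 0.16, Slc16a3 -0.64 ± 0.11 and -0.68 ± 0.09, and Ak4 -0.80 ± 0.12 and -0.55 ± 0.11. These 9 passed the threshold in both comparisons. Slirp was 0.86 ± 0.12 and -0.06 ± 0.14, Atp5k 0.73 ± 0.12 and -0.03 ± 0.14, and Tfrc -0.73 ± 0.12 and -0.34 ± 0.14, each past the threshold for D29H alone, and the adjusted p of the difference between the alleles was 0.0971, 0.216 and 0.516. Of the DNA replication list 11 genes fell in D29H and 3 in R554Q, of the mitotic list 5 and 1, and of serine synthesis and ATF4 targets 0 and 10. The medians of the 3 lists were -0.18, -0.30 and -0.18 in D29H and -0.09, -0.12 and -0.19 in R554Q, and no gene of the 3 differed between the alleles at the adjusted threshold. Tested as a difference between the alleles over all 12 libraries, 4 of 14794 genes passed (0.0270%), and all 4 are classic targets; none of the genes outside that list passed in edgeR, against 1668 genes in all at an unadjusted p under 0.05 and 71 genes in all called by DESeq2.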

How the data were processed

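RNA sequencing counts of 6 libraries were used, 3 for each Nrf2 group, and the 6 Keap1 libraries entered the comparison of the alleles. For each allele the authors deposited 1 table with unnormalised read counts and FPKM of every gene, per the file headers; the Nrf2 table lists 22114 genes. STAR, DESeq2 and mm10 are named without a role in the submitters' processing notes, and the counting tool, the annotation and whether strand was used are not given in the sources used here. Antisense and overlapping genes, tandem paralogues and pseudogenes are therefore uncertain. The authors' FPKM were used only to compare levels between genes, and no other deposited column was used.

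Counts were tested in R 4.3.3 with edgeR 4.0.16 (filterByExpr, TMM factors, glmQLFit and glmQLFTest) on the 6 libraries, which left 14370 genes, and a call needed a Benjamini-Hochberg adjusted p under 0.05 over all of them. The alleles were compared in 1 fit of 12 libraries over 14794 genes. The fit of 6 libraries was tested on simulated counts that held no library-wide trend in length or GC. The fit of 12 libraries was not tested in this way. Libraries of a group differed by far more than sampling noise (chi-square per degree of freedom 4.92 to 23.2), so none was treated as a duplicate. With 14963004 to 23818477 reads, 1 CPM, scaled with the TMM factor, stands for 14.9 to 23.4 reads.

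The 50 gene lists and the naming rule were chosen with earlier results of these data known. The rule named Nfe2l2 and Keap1, the 12 largest rises and 12 largest falls among called protein-coding genes outside the classic targets with a mean of at least 100 reads and no overlap, and in each list up to 4 called genes per direction by smallest adjusted p or, with none called, the 2 with the highest mean CPM. Other genes are marked in the text as picked after their values had been seen, or are named because a count was small. Alternatives were RLE size factors, dropping the filter or requiring 50 reads on average, DESeq2 1.42.0, limma-trend 3.58.1, a single fit of all 12 libraries, a block for the replicate number, offsets for length and GC content (lowess, span 0.3), each library left out, and an adjusted p under 0.01. Promoter sequences are from RefSeq (GRCm38.p6).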

Additional observations from a re-analysis of the deposited data

Results flagged for a closer look

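The effect of D29H minus that of R554Q passed the test (edgeR, 12 libraries) for 4 genes. All are classic NRF2 targets. It was 0.82 (log2) for Mgst1, a microsomal glutathione transferase, whose rise was larger in D29H (2.10 ± 0.13) than in R554Q (1.28 ± 0.09). It was -1.69 for Slc7a11, the cystine importer, -1.01 for Abcc4 and -0.69 for Srxn1, which restores peroxiredoxins, with the larger value in R554Q. Slc7a11 did not pass the test in D29H itself (0.65 ± 0.20, adjusted p = 0.0547, overlapping groups) and was 2.35 ± 0.16 in R554Q. The calls depended on the setting: no gene passed with a replicate block or without D29H replicate 2, D29H replicate 3, R554Q replicate 1 or wild-type replicate 1, and DESeq2 called 71. The control of D29H is a labelled knockout and that of R554Q has wild-type function, so the 2 effects start from different baselines. No group had the 4 libraries that a search for single outlying values needs.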

How the results depend on the processing

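As reported, 498 genes were higher and 184 lower in D29H, 123 list genes outside the classic targets were called, and 4 genes differed between the alleles. Leaving out 1 library at a time gave 72 to 1194 higher, 9 to 998 lower, 17 to 319 list genes and 0 to 26 genes that differed between alleles; without D29H replicates 2 or 3 and without labelled-knockout replicate 2 the counts of genes higher and lower were smallest, and without D29H replicate 1 largest. An adjusted p under 0.01 left 115 higher, 23 lower and 32 list genes. Without a filter on low counts 456 genes were lower and 206 list genes called, and DESeq2 called 347 lower and 71 that differed between alleles. The replicate block gave 524 higher, 204 lower and 134 list genes but 0 genes that differed between alleles, and the replicate block with length and GC offsets gave 330 higher. Same-numbered libraries of the 2 groups did not deviate together (r = -0.103, -0.071 and -0.028) and none correlated best with its own number, so the numbers were not taken as pairs. Other counts stayed within 1.5 times. The cause of these shifts was not tested. Labelled-knockout replicate 3 had the fewest reads, which limits what low-count genes such as Prl2c3, Scara5 and Cldn4 can show. Of 119 named genes that were called, none changed sign in any alternative, 47 were also under 0.01, and 45 of these kept the call in every other alternative that uses all 6 libraries and tests them. With each library left out too, 27 were left. Length and GC offsets ended the call of 14 of the 119, D29H replicate 2 left out that of 82, and D29H replicate 3 that of 88.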
